A study of Arabidopsis thaliana with 2 samples.

Results

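The genes described here encode the DNA methylation machinery of Arabidopsis and its RNA-directed branch. They are 38 of the 37899 annotated nuclear genes, chosen by their known role in DNA methylation. They comprise the methyltransferases, their maintenance cofactors, the DNA demethylases, the proteins that make and use small interfering RNAs (siRNAs), and histone and silencing factors. A 99-base bin was assigned to a gene when it overlapped the annotated gene (TAIR10.1) or the window of 3000 bases before its start, taking strand into account. In that window, 36 of the 38 genes had at least 1 bin in the deposited table, with 145 bins in all, whereas VIM2 (AT1G66050) and DMS3 (AT3G49250) were not listed.

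Whole-genome bisulfite sequencing was performed on genomic DNA of 12-d-old seedlings, with 1 library of miP1a-OX (labelled miP1aOX) and 1 library of untransformed Col-0 wild type. In miP1a-OX the FLAG-tagged microProtein miP1a, a small B-Box protein that delays flowering, was driven by the constitutive 35S promoter, so it was not restricted to the tissues that normally express it. As to growth, MS plates are named in the methods and soil in the sample records. Bisulfite converts unmethylated cytosines, so a methylation level is the share of cytosine calls in a bin that stayed unconverted. It was taken here over every sequence context on both strands. How complete the conversion was in either library was not examined. Each level below is given as methylated calls of all calls, and intervals in parentheses are 95% Clopper-Pearson intervals that cover counting error alone. Because each genotype has 1 library, Fisher's exact test (two-sided) compares these libraries and not the genotypes, and no replicate check exists. The table lists only bins with p of at most 0.01 (the largest recomputed p was 0.00999986), so every bin below was selected by its own difference, and no bin with a larger p enters the comparison.

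In plants, cytosines are methylated in CG, CHG and CHH contexts, where H is any base but G. CG methylation is copied after replication by MET1 with the VIM proteins, and non-CG methylation is maintained by the chromomethylases, which read histone H3 lysine 9 methylation. In RNA-directed DNA methylation (RdDM), RNA polymerase IV transcripts are turned into siRNAs that guide ARGONAUTE proteins to transcripts of RNA polymerase V, where DRM2 methylates the DNA de novo. DNA glycosylases of the ROS1 family remove methylcytosine again. The machinery genes are themselves loci that can carry methylation, which is the question addressed here: whether the DNA at the genes of this machinery differed between the 2 libraries, and where.

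The sequences of the bins with the largest differences show what kind of DNA was involved. They are the plus strand of TAIR10.1 (RefSeq), with the CG dinucleotides in capitals. All 6 chosen for their size of difference lie upstream of the gene, and few of their cytosines are in CG. The last sequence, from the run upstream of MORC6, was added after its values were seen because it holds no CG.
CLSY1 chr3:14762201-14762299: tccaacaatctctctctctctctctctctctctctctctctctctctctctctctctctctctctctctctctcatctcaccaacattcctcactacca
MORC6 chr1:6594001-6594099: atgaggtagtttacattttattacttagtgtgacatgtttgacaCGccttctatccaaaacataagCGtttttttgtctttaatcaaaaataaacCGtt
HEN1 chr4:11192501-11192599: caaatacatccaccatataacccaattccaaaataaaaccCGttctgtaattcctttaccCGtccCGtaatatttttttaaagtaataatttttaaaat
HEN1 chr4:11193301-11193399: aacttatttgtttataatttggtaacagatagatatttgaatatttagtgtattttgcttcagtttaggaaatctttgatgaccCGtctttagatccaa
DRD1 chr2:7094401-7094499: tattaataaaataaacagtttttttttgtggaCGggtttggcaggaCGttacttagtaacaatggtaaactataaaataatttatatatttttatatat
MET1 chr5:19930501-19930599: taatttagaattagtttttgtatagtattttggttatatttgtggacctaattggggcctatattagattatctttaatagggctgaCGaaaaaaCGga
MORC6 chr1:6593601-6593699: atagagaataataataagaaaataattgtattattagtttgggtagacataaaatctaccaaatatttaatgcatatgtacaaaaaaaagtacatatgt
The CLSY1 bin is mostly a TC dinucleotide repeat with 47 cytosines, all on the plus strand and none in CG. The HEN1 bins have 106 and 125 close copies elsewhere in the genome (at least 90% identity over at least 80 bases), the MET1 bin has 34, the DRD1 bin 6 and the CLSY1 bin 5. Both MORC6 bins have 0 close copies.

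Across the 38 genes the listed bins were about as frequent as in the rest of the genome. The windows of the genes held 3216 bins, of which 145 (4.51%) were listed, against 4.72% of all nuclear bins and 3.84% of the bins in the windows of all protein-coding genes. The 36 of 38 genes with a listed bin compare with 72.1% of protein-coding genes, but the windows of the 38 genes were longer, with a median of 82 bins against 52 over all protein-coding genes. In 80 of the 145 bins (55.2%) the level was higher in miP1a-OX and in 65 it was lower, against 64.0% higher among all listed nuclear bins. No bin reached a difference of 40 percentage points, a size reached by 0.401% of the listed nuclear bins that had a minimum of 10 calls per library, and 4 of the 145 passed 20 points, which 3.60% of the listed nuclear bins did. After Benjamini-Hochberg adjustment over all bins of the reference, 47 bins of 22 genes had an adjusted p of at most 0.01, 22 of them higher and 25 lower in miP1a-OX, a share that compares with 32.2% of the listed nuclear bins.

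**Figure D1:**
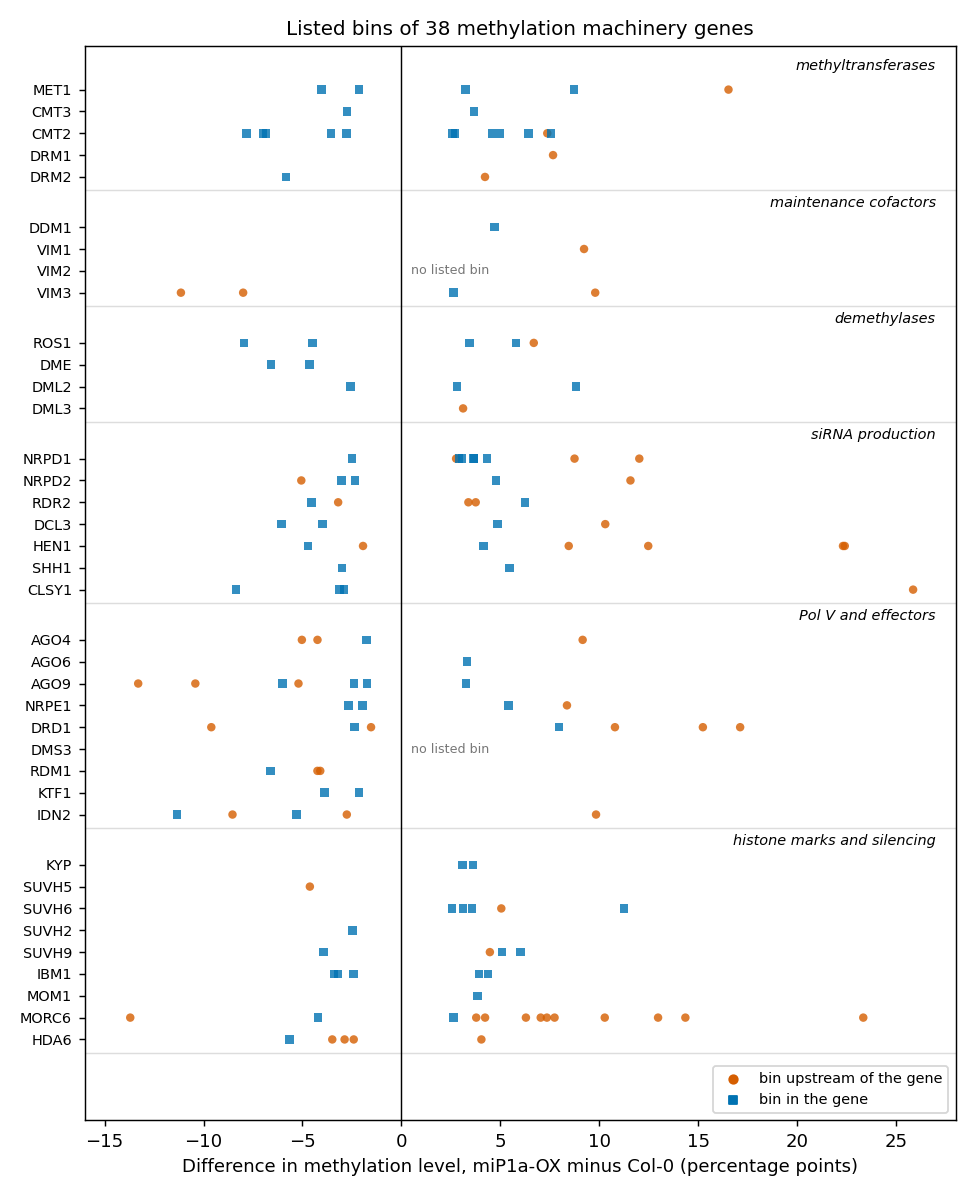
Difference in methylation level between the miP1a-OX and the Col-0 library (horizontal axis, percentage points, miP1a-OX minus Col-0) for the 145 listed bins of the 38 genes (rows, by role). Circles are bins upstream and squares are bins in the gene; 19 upstream bins and 2 gene bins lie beyond 10 points, and 23 genes have bins on both sides of 0.

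The direction depended on where a bin lay, and in each place it was close to that of other genes. Of the 85 bins in the genes themselves, 41 (48.2%) were higher in miP1a-OX, against 47.4% of the listed bins in all protein-coding genes. Of the 60 upstream bins, 39 were higher. Among the 43 of these that lay outside every protein-coding gene, 33 (76.7%) were higher, against 77.4% of such bins upstream of all protein-coding genes. The other 17 upstream bins lay inside a neighbouring protein-coding gene, and 6 of them were higher and 11 lower. Leaving out the 10 neighbouring bins upstream of MORC6, a choice made after the values were seen, 23 of 33 upstream bins outside genes (69.7%) were higher.

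The upstream bins carried more methylation and larger differences than the gene bins. The median level of the upstream bins was 12.7% in miP1a-OX and 8.56% in Col-0, and that of the gene bins was 2.64% in miP1a-OX and 2.39% in Col-0. The median size of a difference was 7.70 points upstream and 3.89 points in the genes, against 4.71 points for gene bins of all protein-coding genes. A difference of more than 10 points was found in 19 of the 60 upstream bins (31.7%). In the genes it was found in 2 of 85 bins (2.35%), against 11.6% over all protein-coding genes. In the 43 upstream bins outside every protein-coding gene, the median was 8.75 points and 16 (37.2%) passed 10 points. For such bins upstream of all protein-coding genes, the values were 9.37 points and 44.1%. In 47 bins, 40 of them in a gene, 1 library had 0 methylated calls, which allows a level of up to 0.469% to 2.86% depending on the calls in the bin. In 10 of the 145 bins at least 1 cytosine was not covered in a library. The bins held 105 to 772 calls in a library, with medians of 379 in miP1a-OX and 372 in Col-0.

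**Figure D2:**
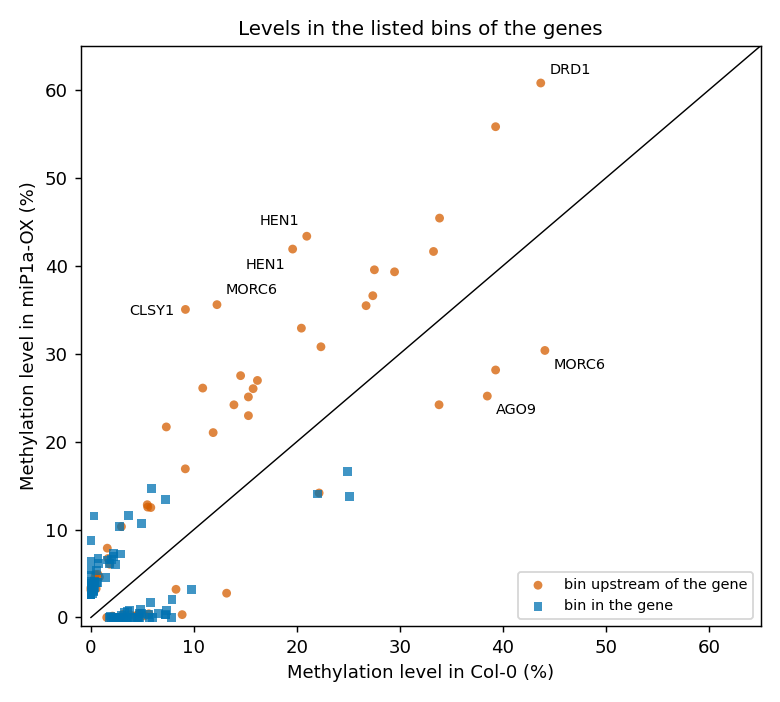
Methylation level of the 145 listed bins in miP1a-OX (vertical axis, %) against Col-0 (horizontal axis, %), circles for upstream bins and squares for bins in the gene. The line marks equal levels, and the band around it is empty because only bins with p of at most 0.01 are listed; the 5 largest increases (CLSY1, MORC6, HEN1 with 2 bins, and DRD1) and the 2 largest decreases (MORC6 and AGO9) are named.

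Calls of 1 sequenced DNA fragment are not independent, and fragments can span several bins. A fragment that is methylated throughout would supply as many methylated calls as its strand has cytosines. How PCR duplicates were treated is not given in the sources used here, and a duplicated fragment could supply more calls than this. The number of methylated calls in the library with the higher level exceeded the cytosines of the richer strand in 62 of the 145 bins (42.8%, against 70.1% of listed nuclear bins), with 39 of 60 upstream and 23 of 85 in the genes. When that many calls were taken from the higher library, 14 of the 145 bins (9.66%) stayed within p = 0.01 (two-sided Fisher's exact test), against 18.7% of the listed nuclear bins. Of these, 12 were among the 60 upstream bins and 2 among the 85 gene bins (2.35%, against 8.86% over all protein-coding genes). The upstream share was 20%, against 31.6% of bins upstream of, and outside, all protein-coding genes. These sets differ, because 17 of the 60 lay inside a neighbouring protein-coding gene. Bins of HEN1 inside AT4G20920 and of MORC6 inside RKF2 are among the 12. In 11 of the 14 the level was higher in miP1a-OX and in 3 lower. The 14 belonged to NRPD1, NRPD2, HEN1, AGO4, AGO9, DRD1, SUVH6 and MORC6.

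The methyltransferase genes had 22 listed bins, 13 higher (59.1%) and 9 lower in miP1a-OX, against 64.0% higher among all listed nuclear bins. Their largest differences were upstream. MET1 (AT5G49160), the CG maintenance enzyme, had 3 bins higher and 2 lower. Its largest difference, 1514 bases upstream at chr5:19930501-19930599, was 72 of 129 calls in miP1a-OX (55.8%, 46.8% to 64.5%) and 66 of 168 in Col-0 (39.3%, 31.9% to 47.1%), 16.5 points higher in miP1a-OX (exact p = 0.00500). That bin has the 34 close copies noted with its sequence, and how reads with several matches were placed was not tested. Within the coding exons of MET1, the bin at 19933101 had 24 of 275 methylated calls in miP1a-OX (8.73%) and 0 of 105 in Col-0, which allows up to 2.86%. The other 3 gene bins differed by -4.04 to 3.24 points.

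CMT2 (AT4G19020), the chromomethylase of CHH sites in heterochromatin, had the most gene bins of any member, 11 of its 12. Along the gene they fell into blocks of 4 lower, 5 higher, 1 lower and 1 higher bin. In 5 neighbouring bins over exons and introns (chr4:10418201-10418699), 74 of 1533 calls were methylated in miP1a-OX (4.83%, 3.81% to 6.02%) and 13 of 1861 in Col-0 (0.699%, 0.372% to 1.19%). In the pair of bins at chr4:10416201-10416399 the order was the opposite, with 1 of 541 calls in miP1a-OX (0.185%) and 41 of 782 in Col-0 (5.24%). The largest difference of CMT2 was in a coding exon at 10415901, where 0 of 348 calls were methylated in miP1a-OX (up to 0.862%) and 25 of 319 in Col-0 (7.84%), a difference of -7.84 points (exact p = 5.89e-09, adjusted p = 2.45e-06 by Benjamini-Hochberg). Of its 12 bins, 6 passed the adjusted threshold and 4 had more methylated calls than 1 fragment could supply. None of the 5 neighbouring bins did, and without the calls of 1 fragment they were at -1.97, -0.23, 0, 0 and -1.56 points. The opposite pair was then at 0 and 0.07 points, and the bin at 10415901 at -1.67 points (exact p = 0.0207). Its only upstream bin lay inside AT4G19010 and was 7.37 points higher in miP1a-OX.

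The other methyltransferase genes had 1 or 2 listed bins each. CMT3 (AT1G69770), the chromomethylase of CHG sites, had a neighbouring pair that went opposite ways, 3.67 points higher at 26250101 (25 of 415 calls in miP1a-OX and 10 of 424 in Col-0, exact p = 0.00911) and -2.75 points at 26250201. Over that pair, 25 of 774 calls were methylated in miP1a-OX (3.23%) and 18 of 715 in Col-0 (2.52%). DRM2 (AT5G14620), the main de novo enzyme, differed most in a coding exon, with 8 of 396 calls in miP1a-OX (2.02%) and 14 of 178 in Col-0 (7.87%), -5.84 points (exact p = 0.00155). Its upstream bin, inside SK13, was 4.22 points higher in miP1a-OX. For DRM1 (AT5G15380), the relative of DRM2, the single bin lay 1447 bases upstream and had 98 of 427 methylated calls in miP1a-OX (23.0%, 19.0% to 27.2%) and 61 of 399 in Col-0 (15.3%, 11.9% to 19.2%), 7.66 points higher (exact p = 0.00610). None of the 25 cytosines of the DRM1 bin is in CG, so its methylated calls were at non-CG sites in both libraries. None of the bins of MET1, CMT3, DRM1 or DRM2 had an adjusted p of at most 0.01.

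Of the maintenance cofactors, the VIM genes carried well methylated upstream bins, while VIM2 was not listed. The VIM proteins bind hemimethylated CG sites and assist MET1. VIM1 (AT1G57820) had 131 of 358 methylated calls in miP1a-OX (36.6%) and 110 of 402 in Col-0 (27.4%) at 385 bases upstream, 9.23 points higher (exact p = 0.00787). VIM3 (AT5G39550) had 3 upstream bins within 322 to 722 bases of the gene that did not share a direction. The nearest had 79 of 315 calls in miP1a-OX (25.1%) and 83 of 543 in Col-0 (15.3%), and its neighbour had 61 of 431 in miP1a-OX (14.2%) and 103 of 465 in Col-0 (22.2%). Pooled, the 2 neighbours had 140 of 746 in miP1a-OX (18.8%) and 186 of 1008 in Col-0 (18.5%), so their opposite differences cancelled. The largest difference of VIM3 was the bin farthest upstream, with 94 of 334 in miP1a-OX (28.1%) and 165 of 420 in Col-0 (39.3%), -11.1 points (exact p = 0.00154). Its 1 gene bin lay in a UTR and was 2.63 points higher in miP1a-OX. DDM1 (AT5G66750), the chromatin remodeller that gives methyltransferases access to heterochromatin, had 1 bin over an exon and intron, with 22 of 319 in miP1a-OX (6.90%) and 8 of 363 in Col-0 (2.20%), 4.69 points higher (exact p = 0.00424). None of the 6 cofactor bins had an adjusted p of at most 0.01.

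The demethylase genes had 11 bins, 6 higher (54.5%) and 5 lower in miP1a-OX, against 64.0% higher among all listed nuclear bins. They had no difference beyond 10 points. ROS1 (AT2G36490), the glycosylase active in most vegetative tissue, is known for a short upstream element at which methylation and ROS1 expression go together. Its 1 listed upstream bin, 93 bases from the annotated gene (chr2:15314901-15314999), had 55 of 440 calls methylated in miP1a-OX (12.5%, 9.56% to 16.0%) and 24 of 413 in Col-0 (5.81%, 3.76% to 8.52%), 6.69 points higher (exact p = 0.000855, adjusted p = 0.0368 by Benjamini-Hochberg). In that bin 10 of 25 cytosines are in CG, the largest CG share among the bins named here, and whether it lies in the known element was not examined. Within ROS1, 2 bins were higher and 2 lower, the largest difference being in a coding exon with 65 of 463 calls in miP1a-OX (14.0%) and 111 of 505 in Col-0 (22.0%), -7.94 points (exact p = 0.00150). DME (AT5G04560), the demethylase of the central cell, was lower in both of its gene bins, with 13 of 409 in miP1a-OX (3.18%) and 40 of 409 in Col-0 (9.78%) in the larger, -6.60 points (exact p = 0.000167). DML2 (AT3G10010) had 2 bins higher and 1 lower, and the largest had 42 of 286 in miP1a-OX (14.7%) and 21 of 358 in Col-0 (5.87%), 8.82 points higher (exact p = 0.000260). The single bin of DML3 (AT4G34060) lay upstream inside CCoAOMT1, with 12 of 385 in miP1a-OX (3.12%) and 0 of 411 in Col-0 (up to 0.730%), 3.12 points higher (exact p = 0.000150).

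The genes that produce siRNAs had 36 bins, 22 higher (61.1%) and 14 lower in miP1a-OX, against 64.0% higher among all listed nuclear bins. Of their 15 upstream bins, 7 (46.7%) differed by more than 10 points, against 44.1% of bins upstream of, and outside, all protein-coding genes. Unlike that set, the 15 include bins inside AT4G11120 and AT4G20920. Of those 15 upstream bins, 12 (80%) were higher in miP1a-OX, against 77.4% of bins upstream of, and outside, all protein-coding genes. The 21 gene bins were split 10 higher (47.6%) to 11 lower, against 47.4% higher among the listed bins in all protein-coding genes.

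NRPD1 (AT1G63020), the largest subunit of RNA polymerase IV, was higher in miP1a-OX in 8 of its 9 bins. In the neighbouring upstream pair (chr1:23363601-23363799, 1011 and 1111 bases from the gene), 345 of 913 calls were methylated in miP1a-OX (37.8%, 34.6% to 41.0%) and 274 of 1009 in Col-0 (27.2%, 24.4% to 30.0%). The first bin of the pair was the largest of the gene, with 206 of 521 in miP1a-OX (39.5%) and 153 of 556 in Col-0 (27.5%), 12.0 points higher (exact p = 3.39e-05, adjusted p = 0.00311 by Benjamini-Hochberg). At the start of the gene, 4 neighbouring bins over the 5′ UTR and its intron (chr1:23362101-23362499) held 48 of 1379 methylated calls in miP1a-OX (3.48%, 2.58% to 4.59%) and 2 of 1750 in Col-0 (0.114%, 0.0138% to 0.412%). These 4 bins thus had almost no methylation in Col-0 and a low level in miP1a-OX, and none of them had more methylated calls than 1 fragment could supply. The libraries did not cover the same cytosines throughout. At 23362301, 43 cytosines were covered in miP1a-OX and 35 in Col-0, and at 23362401, 36 in miP1a-OX and 25 in Col-0.

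NRPD2 (AT3G23780), the second-largest subunit shared by polymerases IV and V, differed most at 391 bases upstream, with 228 of 502 calls in miP1a-OX (45.4%) and 199 of 588 in Col-0 (33.8%), 11.6 points higher (exact p = 0.000112). Farther out, at 591 bases, it had 16 of 500 in miP1a-OX (3.20%) and 46 of 557 in Col-0 (8.26%), without a CG among 27 cytosines. An intron bin of NRPD2 had 29 of 607 calls in miP1a-OX (4.78%) and 0 of 504 in Col-0 (up to 0.595%), with an adjusted p of 7.18e-06 (Fisher's exact test, Benjamini-Hochberg). RDR2 (AT4G11130), which copies polymerase IV transcripts into double-stranded RNA, had 3 bins higher and 2 lower. Its largest difference was in the gene, with 55 of 409 in miP1a-OX (13.4%) and 27 of 375 in Col-0 (7.20%), 6.25 points higher (exact p = 0.00488). A neighbouring pair 2749 and 2849 bases upstream of RDR2 had 26 of 698 in miP1a-OX (3.72%) and 1 of 700 in Col-0 (0.143%). DCL3 (AT3G43920), the Dicer that cuts the double strands into siRNAs, was highest at 287 bases upstream, with 74 of 306 in miP1a-OX (24.2%) and 54 of 389 in Col-0 (13.9%), 10.3 points higher (exact p = 0.000556). The 3 gene bins of DCL3 differed by -6.05 to 4.86 points, and all 3 passed the adjusted threshold. Without the calls of 1 fragment they were at -0.54, -0.50 and 0 points.

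HEN1 (AT4G20910), which methylates the 3′ ends of small RNAs, had 5 upstream bins, of which 4 were well methylated in both libraries and higher in miP1a-OX, while the farthest had 1 of 661 calls in miP1a-OX and 6 of 287 in Col-0 (-1.94 points). At 2177 bases upstream (chr4:11193301-11193399), 106 of 253 calls were methylated in miP1a-OX (41.9%, 35.7% to 48.2%) and 75 of 383 in Col-0 (19.6%, 15.7% to 23.9%), 22.3 points higher (exact p = 2.17e-09, adjusted p = 1.04e-06 by Benjamini-Hochberg). The largest difference, at 1377 bases, was 62 of 143 in miP1a-OX (43.4%, 35.1% to 51.9%) and 22 of 105 in Col-0 (21.0%, 13.6% to 30.0%), 22.4 points higher (exact p = 0.000238), and without the calls of 1 fragment it was 11.5 points (exact p = 0.0708). Both are the bins with over 100 close copies whose sequences are printed above, and the placing of their reads was likewise not tested. The bin at 2377 bases, with 102 of 310 in miP1a-OX (32.9%) and 76 of 372 in Col-0 (20.4%), has 0 close copies and no CG among 21 cytosines, and it lies inside the neighbouring gene AT4G20920. Nearest the gene, at 477 bases, in a bin with 6 close copies, the levels were 30.8% in miP1a-OX and 22.3% in Col-0. In contrast, the bins in HEN1 itself held little methylation, with 21 of 506 in miP1a-OX and 0 of 252 in Col-0 (up to 1.19%) in the first, and 0 of 416 in miP1a-OX (up to 0.721%) and 22 of 467 in Col-0 in the second.

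CLSY1 (AT3G42670), a remodeller that helps recruit polymerase IV, had the largest difference of any member. In the dinucleotide repeat 1571 bases upstream (chr3:14762201-14762299), 55 of 157 calls were methylated in miP1a-OX (35.0%, 27.6% to 43.0%) and 10 of 109 in Col-0 (9.17%, 4.49% to 16.2%), 25.9 points higher (exact p = 6.24e-07). Because all 47 cytosines are on 1 strand, 1 methylated or unconverted fragment could supply 47 of the 55 methylated calls, and without them the difference was -1.90 points. The 3 gene bins of CLSY1 were all lower in miP1a-OX, and the neighbouring pair among them (chr3:14758601-14758799) had 55 of 882 in miP1a-OX (6.24%) and 111 of 838 in Col-0 (13.2%). SHH1 (AT1G15215), which reads H3K9 methylation for polymerase IV, had 1 gene bin higher and 1 lower, the larger with 14 of 256 in miP1a-OX (5.47%) and 0 of 347 in Col-0 (up to 0.865%), 5.47 points higher (exact p = 5.01e-06). Without the calls of 1 fragment that larger bin was at 0 points.

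The genes of the polymerase V and effector step went the other way more often, with 10 of 33 bins higher and 23 lower in miP1a-OX. In the genes, 4 of 16 (25%) were higher, against 47.4% of the listed bins in all protein-coding genes. Upstream it was 6 of 17 (35.3%), against 77.4% of bins upstream of, and outside, all protein-coding genes. Unlike that set, the 17 include bins inside AT2G16385, AT3G22660 and AT3G48660. This split was noticed among 6 groups of genes and was not tested. The median level of these 33 bins was 0.446% in miP1a-OX and 4.69% in Col-0, and 8 bins had 0 methylated calls in miP1a-OX against 1 in Col-0.

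AGO9 (AT5G21150), an ARGONAUTE best known from ovules, was lower in miP1a-OX in 6 of its 7 bins. The 3 upstream bins lay between 1639 and 2039 bases from the gene. The largest, chr5:7190501-7190599, had 142 of 564 methylated calls in miP1a-OX (25.2%, 21.6% to 29.0%) and 177 of 460 in Col-0 (38.5%, 34.0% to 43.1%), -13.3 points (exact p = 5.37e-06, adjusted p = 0.000721 by Benjamini-Hochberg). The neighbouring pair (chr5:7190101-7190299) had 9 of 530 in miP1a-OX (1.70%, 0.779% to 3.20%) and 74 of 817 in Col-0 (9.06%, 7.18% to 11.2%). In the gene, a neighbouring pair over exons and introns (chr5:7197001-7197199) had 0 of 981 calls in miP1a-OX (0% to 0.375%) and 17 of 819 in Col-0 (2.08%). A further bin there had 0 of 401 in miP1a-OX (up to 0.748%) and 22 of 366 in Col-0 (6.01%). The last gene bin, at the edge of AGO9, went the other way, with 14 of 430 in miP1a-OX (3.26%) and 0 of 397 in Col-0 (up to 0.756%).

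AGO4 (AT2G27040), the main ARGONAUTE of RdDM, was lower directly before its start and higher farther out. In the pair 9 and 109 bases upstream (chr2:11542401-11542599), 3 of 971 calls were methylated in miP1a-OX (0.309%) and 25 of 505 in Col-0 (4.95%). Neither bin of the pair had more methylated calls in Col-0 than 1 fragment could supply. Without the calls of 1 fragment the pair no longer was lower, with differences of 0.45 and 0.19 points. At 2609 bases, 111 of 528 were methylated in miP1a-OX (21.0%) and 63 of 531 in Col-0 (11.9%), 9.16 points higher (exact p = 6.41e-05, adjusted p = 0.00510 by Benjamini-Hochberg). AGO6 (AT2G32940), its relative, had 1 gene bin with 10 of 254 in miP1a-OX (3.94%) and 2 of 319 in Col-0 (0.627%), 3.31 points higher (exact p = 0.00725).

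NRPE1 (AT2G40030), the largest subunit of RNA polymerase V, was well methylated 360 bases upstream in both libraries, with 241 of 579 calls in miP1a-OX (41.6%) and 146 of 439 in Col-0 (33.3%), 8.37 points higher (exact p = 0.00749). Its 3 gene bins differed by -2.68 to 5.41 points. DRD1 (AT2G16390), the remodeller of the complex that lets polymerase V transcribe, had 5 upstream bins with opposite directions close together. At 2780 bases upstream, in the bin with 6 close copies, 93 of 153 calls were methylated in miP1a-OX (60.8%, 52.6% to 68.6%) and 131 of 300 in Col-0 (43.7%, 38.0% to 49.5%), 17.1 points higher (exact p = 0.000710). In the next bin toward the gene, 67 of 277 were methylated in miP1a-OX (24.2%) and 171 of 506 in Col-0 (33.8%), -9.61 points, and the pair pooled to 37.2% in miP1a-OX and 37.5% in Col-0. A second pair, 1280 and 1380 bases upstream, was higher in both bins, with 130 of 486 in miP1a-OX (26.7%, 22.9% to 30.9%) and 105 of 692 in Col-0 (15.2%, 12.6% to 18.1%). Over all 7 bins of DRD1 the summed calls gave -1.41 points, whereas the mean of the bin differences was 5.37 points, so the direction for the gene as a whole depends on how its bins are weighted.

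RDM1 (AT3G22680), which links siRNA production to methylation in the same complex as DRD1, was lower in miP1a-OX in all 3 of its bins. The largest was in its UTR, where it also overlaps AT3G22670, with 4 of 525 in miP1a-OX (0.762%) and 34 of 461 in Col-0 (7.38%), -6.61 points (exact p = 3.64e-08, adjusted p = 1.17e-05 by Benjamini-Hochberg). The neighbouring pair 1233 and 1333 bases upstream lay inside AT3G22660 and had 3 of 1175 in miP1a-OX (0.255%) and 29 of 658 in Col-0 (4.41%). All 3 bins passed the adjusted threshold. Without the calls of 1 fragment, however, the UTR bin was at -0.17 points and the upstream pair at 0.17 and 0.35 points. The third member of that complex, DMS3, had no listed bin. KTF1 (AT5G04290), an elongation factor relative that binds AGO4, was lower in both gene bins, the larger with 0 of 242 in miP1a-OX (up to 1.24%) and 19 of 489 in Col-0 (3.89%), -3.89 points (exact p = 0.000722). In that bin only 13 of 58 cytosines were covered in miP1a-OX and all 58 in Col-0, so the levels come from different sets of cytosines. IDN2 (AT3G48670), a double-stranded RNA-binding protein of RdDM, was lower in 4 of 5 bins. Its largest difference was also the largest inside any member gene, with 49 of 356 in miP1a-OX (13.8%, 10.4% to 17.8%) and 69 of 275 in Col-0 (25.1%, 20.1% to 30.6%), -11.3 points (exact p = 0.000432, adjusted p = 0.0221 by Benjamini-Hochberg). Without the calls of 1 fragment that difference was -1.11 points. At 1669 bases upstream the order was reversed, with 182 of 463 in miP1a-OX (39.3%) and 112 of 380 in Col-0 (29.5%), 9.84 points higher.

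**Figure D3:**
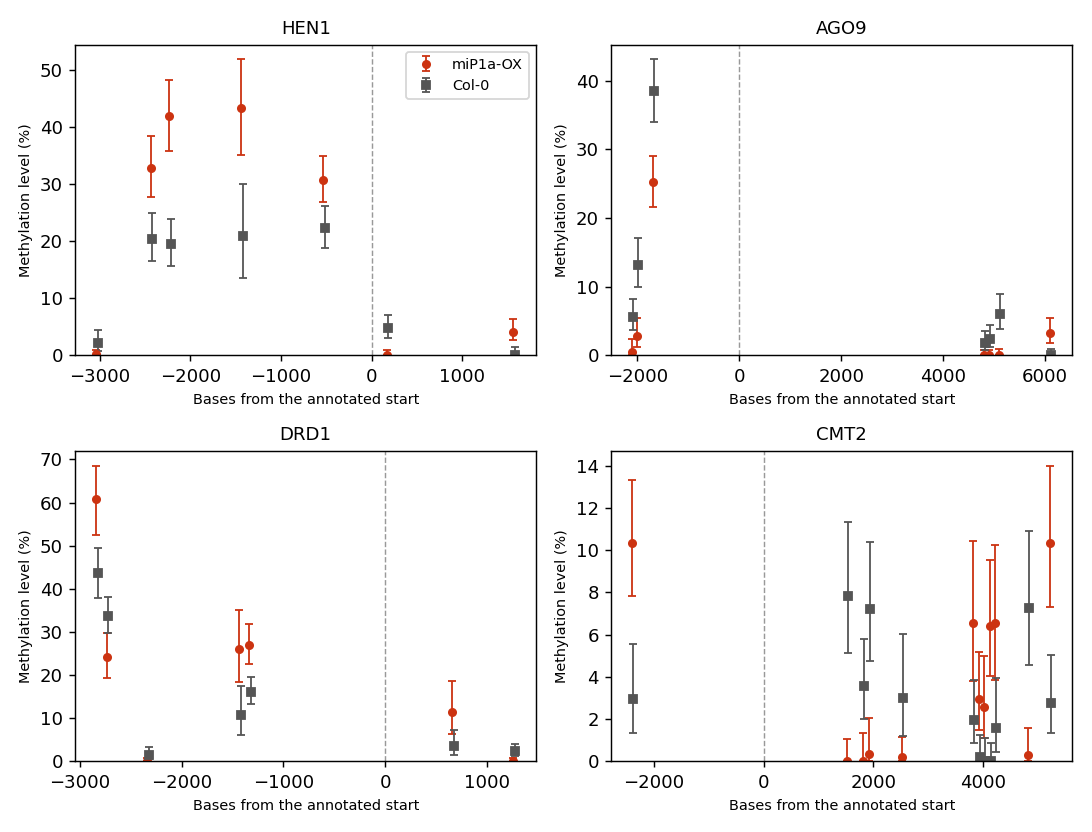
Methylation level (vertical axis, %) of the listed bins of HEN1, AGO9, DRD1 and CMT2 by the distance of the bin's centre from the annotated start of the gene (horizontal axis, bases; dashed line, start), with 95% Clopper-Pearson intervals. Circles are miP1a-OX and squares Col-0; the 4 well methylated HEN1 bins are higher in miP1a-OX, the 3 upstream AGO9 bins are lower, and DRD1 and CMT2 have bins of both directions.

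The histone and silencing factors had 37 bins, 25 higher (67.6%) and 12 lower in miP1a-OX, against 64.0% higher among all listed nuclear bins. Of the higher ones, 10 formed a single stretch upstream of MORC6. MORC6 (AT1G19100) is an ATPase that compacts silenced chromatin. The 10 neighbouring bins at chr1:6593301-6594299 lay 583 to 1483 bases upstream, outside any annotated gene, and all 10 were higher in miP1a-OX. Over the stretch, 552 of 2994 calls were methylated in miP1a-OX (18.4%, 17.1% to 19.9%) and 275 of 3321 in Col-0 (8.28%, 7.37% to 9.27%), 10.2 points higher. The levels of the single bins were between 4.60% and 35.6% in miP1a-OX and between 0.822% and 15.7% in Col-0, with at least 165 calls in each.

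The bin at 783 bases upstream had the largest difference of the stretch, with 164 of 461 in miP1a-OX (35.6%, 31.2% to 40.1%) and 52 of 425 in Col-0 (12.2%, 9.27% to 15.7%), 23.3 points higher (exact p = 2.56e-16, adjusted p = 6.88e-13 by Benjamini-Hochberg). Its sequence, printed above, holds 6 of 30 cytosines in CG. Without it, the other 9 bins pooled to 15.3% in miP1a-OX and 7.70% in Col-0. The stretch was mostly CHH, with 16 CG, 6 CHG and 229 CHH among its 251 cytosines. In the 6 bins that hold no CG, of which the last printed sequence is an example, 192 of 1532 calls were methylated in miP1a-OX (12.5%) and 117 of 1924 in Col-0 (6.08%), so these methylated calls were at non-CG sites. The 6 were listed by their own p, and without the calls of 1 fragment only the printed bin stayed within p = 0.01 (9.44 points higher, exact p = 0.00341), while 6593401, 6593801, 6593901 and 6594201 turned to differences of -0.87, -0.82, -1.59 and -0.44 points and 6593501 to 0.40. These 6 bins were set apart after the values were seen.

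The bins of the stretch are not independent measurements, because neighbouring bins share fragments. In 8 of the 10 bins the methylated calls exceeded what 1 fragment could supply, 3 passed the adjusted threshold of 0.01 in Fisher's exact test, and 3 stayed within p = 0.01 without the calls of 1 fragment. Among all listed nuclear bins, 8 runs of 10 or more neighbouring bins shared a direction, the longest having 13. The bin farthest upstream of MORC6, inside RKF2, went the opposite way, with 133 of 438 in miP1a-OX (30.4%) and 182 of 413 in Col-0 (44.1%), -13.7 points (exact p = 3.76e-05). The 2 bins in MORC6 itself were low in both libraries and differed by 2.64 and -4.20 points.

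**Figure D4:**
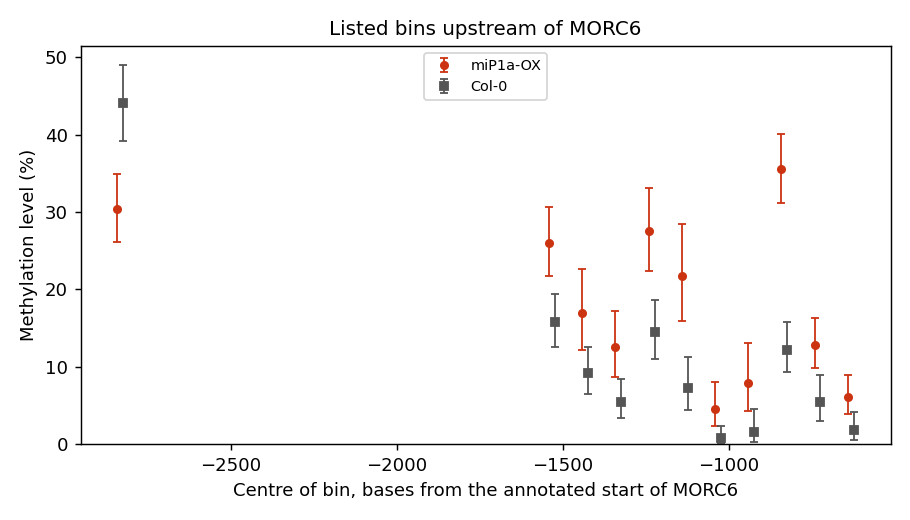
Methylation level (vertical axis, %) of the 11 listed bins upstream of MORC6 by the distance of the bin's centre from the annotated start of the gene (horizontal axis, bases), circles for miP1a-OX and squares for Col-0 with 95% Clopper-Pearson intervals. The 10 neighbouring bins are higher in miP1a-OX, most of all the one at 35.6% in miP1a-OX and 12.2% in Col-0, and the bin farthest upstream is lower.

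Among the H3K9 methyltransferases, SUVH6 (AT2G22740) was higher in miP1a-OX in all 5 of its bins. These enzymes write the histone mark that the chromomethylases read. The largest difference, in a coding exon at chr2:9665301-9665399 that also overlaps AT2G07845, was 48 of 416 in miP1a-OX (11.5%, 8.63% to 15.0%) and 1 of 332 in Col-0 (0.301%, 0.00763% to 1.67%), 11.2 points higher (exact p = 4.51e-12, adjusted p = 4.63e-09 by Benjamini-Hochberg). Without the calls of 1 fragment it was 5.58 points (exact p = 8.63e-06). The other 4 bins were 2.55 to 5.05 points higher, and over all 5 the level was 5.60% in miP1a-OX and 0.539% in Col-0. Without the calls of 1 fragment, those in the gene were at -0.31, -0.19 and 0 points, and the upstream bin at 1.90 points. The bins at 9663701 and 9663901 also overlap AT2G22730. KYP (AT5G13960), the main enzyme of this kind, had 2 gene bins, both higher, the larger with 18 of 454 in miP1a-OX (3.96%) and 1 of 286 in Col-0 (0.350%), 3.62 points higher (exact p = 0.00143). Without the calls of 1 fragment both were at -0.35 points. SUVH5 (AT2G35160) had a single bin, upstream inside AT2G35155, with 0 of 283 in miP1a-OX (up to 1.06%) and 13 of 281 in Col-0 (4.63%), -4.63 points (exact p = 0.000101).

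SUVH9 and SUVH2 bind methylated DNA and help bring polymerase V to it. SUVH9 (AT4G13460) was higher in 3 of 4 bins, most at the edge of the gene, where 26 of 387 calls were methylated in miP1a-OX (6.72%) and 2 of 289 in Col-0 (0.692%) without a CG among 20 cytosines, 6.03 points higher (exact p = 4.43e-05). A UTR bin of SUVH9 was lower, with 7 of 772 in miP1a-OX (0.907%) and 35 of 724 in Col-0 (4.83%). SUVH2 (AT2G33290) had 1 intron bin, with 0 of 333 in miP1a-OX (up to 0.901%) and 5 of 203 in Col-0 (2.46%), -2.46 points (exact p = 0.00755).

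IBM1 (AT3G07610), the demethylase that keeps H3K9 methylation out of genes, had 5 gene bins, 2 higher and 3 lower. The largest difference lay in an annotated UTR, with 34 of 471 in miP1a-OX (7.22%) and 16 of 563 in Col-0 (2.84%), 4.38 points higher (exact p = 0.00124). The 3 lower bins had 0 methylated calls in miP1a-OX, and between 8 and 14 in Col-0. HDA6 (AT5G63110), a histone deacetylase of silenced loci, was lower in 4 of 5 bins. Its gene bin had 0 of 421 in miP1a-OX (up to 0.713%) and 18 of 318 in Col-0 (5.66%), -5.66 points (exact p = 1.93e-07, adjusted p = 4.71e-05 by Benjamini-Hochberg), and its 4 upstream bins all lay inside AT5G63120. Without the calls of 1 fragment the HDA6 gene bin was at 0 points. MOM1 (AT1G08060), a silencing factor that acts largely without changing DNA methylation, had 1 coding exon bin with 10 of 260 in miP1a-OX (3.85%) and 0 of 175 in Col-0 (up to 1.71%), 3.85 points higher (exact p = 0.00700), from 22 of 53 cytosines covered in miP1a-OX and 21 in Col-0.

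The share of cytosines in CG was alike upstream and in the genes, while the levels were higher upstream. The median bin had 10% of its cytosines in CG in both places. The level exceeded that CG share in 37 of the 60 upstream bins in miP1a-OX and in 30 of 60 in Col-0, which cannot happen unless non-CG cytosines are among the methylated calls, if calls fall evenly over the cytosines. In the genes, where levels were low, this was so for 5 of 85 bins in miP1a-OX and 10 of 85 in Col-0. A total of 17 bins had no CG at all, 14 of them upstream.

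Other genes of the same pathway had mostly small differences as well. Of 25 further genes written down for comparison, 19 had a listed bin, against 72.1% of all protein-coding genes. They had 44 different bins, 17 higher and 27 lower in miP1a-OX (38.6% higher). Among all listed nuclear bins 64.0% were higher, and among those in protein-coding genes 47.4%. The direction in these further genes was not tested. The largest difference was 471 bases upstream of CHR40 (AT3G24340), a close relative of CLSY1, with 136 of 342 in miP1a-OX (39.8%) and 74 of 332 in Col-0 (22.3%), 17.5 points higher (exact p = 1.25e-06). FDM2 (AT4G00380), a relative of IDN2, was 13.1 points higher upstream, with 103 of 284 in miP1a-OX (36.3%) and 67 of 289 in Col-0 (23.2%). The largest decrease was in AT4G36290, a MORC family gene, with 0 of 530 in miP1a-OX (up to 0.566%) and 47 of 477 in Col-0 (9.85%), -9.85 points (exact p = 1.60e-16).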

How the data were processed

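Whole-genome bisulfite sequencing data of 1 miP1a-OX and 1 Col-0 library were analysed from the processed table. The authors mapped reads to TAIR9 with BS-Seeker2 2.1.0 running Bowtie2, used Methpipe for the levels and deposited counts of methylated and unmethylated cytosine calls for bins spaced 100 bases apart, without normalization. The deposited methylation level is a fraction of methylated calls. The number of covered cytosines per bin was also taken as deposited. The authors' p-values (Fisher's exact test per bin) and an annotated list made with HOMER were not used, nor were 10 further columns of values. The columns named for CpG sites equal C plus G in the 99 bases of 100% of listed nuclear bins in TAIR10.1, so coordinates could be joined to that annotation.

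Fisher's exact test (two-sided) and 95% Clopper-Pearson intervals were computed with scipy 1.17.1 (python 3.11.15, pandas 2.3.3, numpy 2.4.6), with at least 10 calls in each library. Benjamini-Hochberg adjustment took 1196690 reference bins as the number of tests, since bins with p above 0.01 are not used here. For a level of 0, the upper limit was set at 3 calls. Listed bins held 24269108 calls in miP1a-OX and 24091300 in Col-0. Copies were searched with blastn 2.17.0 (at least 90% identity over 80 bases). Bins were sorted into genes and upstream windows of 3000 bases. The test was also run on simulated data with independent calls, which cannot show how it behaves when calls share a fragment. The genes, the lists and the rule for naming bins (the largest absolute difference of each gene, all runs of neighbouring bins, sequences of the 6 largest bins outside UTRs) were chosen with earlier results of these data known. Alternatives were coverage minimums of 1, 20 and 50 calls, windows of 0, 1000 and 2000 bases, other difference thresholds, thinning, adjustment, removal of 1 fragment, centring, omission of copied bins and, chosen after seeing the data, omission of the MORC6 run.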

Additional observations from a re-analysis of the deposited data

How the results depend on the processing

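No paired analysis was possible because there is a single library of either genotype, and none could be left out. The number of bins higher in miP1a-OX, 80 in all, was 41 with the genes alone, 22 with Benjamini-Hochberg adjustment of Fisher's exact test, 11 without the calls of 1 fragment (14 of 145 bins left, against 18.7% of the listed nuclear bins) and 40 when 5.26 points, the median difference of the listed nuclear bins, was subtracted. Without the MORC6 run, an alternative chosen after seeing the data, it was 70 of 135. The number of genes with a bin, 36, was 22 with the adjustment and 8 without 1 fragment. At a difference of at least 20 points 4 bins passed, against 0 at 40 points. Coverage minimums of 1, 20 and 50 calls changed none of these counts, since every bin had at least 105 calls.

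Of the 36 bins given as the largest of a gene, 30 kept p of at most 0.01 when the deeper library was thinned, 14 after adjustment and 6 without 1 fragment. Without 1 fragment 7 changed sign, to -0.63 points at AGO6, -1.90 at CLSY1, -0.84 at CMT3, -0.55 at DDM1, 2.02 at DRM2, -0.39 at IBM1 and -0.35 at KYP. Centring also turned 7, by its construction all small increases, to -1.95 points at AGO6, -1.60 at CMT3, -0.57 at DDM1, -2.15 at DML3, -0.89 at IBM1, -1.65 at KYP and -1.42 at MOM1. Summed over the bins of a gene, 4 genes were lower in miP1a-OX but had a mean of bin differences above 0, 0.69 points at ROS1, 1.19 at NRPD2, 2.87 at CLSY1 and 5.37 at DRD1. Of the 85 gene bins, 62 held no more methylated calls than 1 fragment could supply, with a median of 321 calls in the shallower library in the genes and 315.5 upstream.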
